A study of Mus musculus with 7 samples.

Results

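The 44 genes described here are the core of the DNA replication and cell division machinery, from the proteins that mark replication origins to the kinases that drive mitosis. They were taken from a list of named genes, and all 44 were found among the 21631 protein-coding genes on chromosomes 1 to 19 and X of the RefSeq table for GRCm38. The cells were CEBPA/CSF3R leukaemia cells of BALB/c background, that is, bone marrow cells that carry retrovirally expressed mutant CSF3R, a cytokine receptor of the granulocyte lineage, together with mutant CEBPA, a factor that sets that lineage. Both groups carry both mutant proteins. One group received the solvent DMSO for 48 h and the other received GSK-LSD1, an inhibitor of the histone demethylase LSD1, at 4 nM for 48 h. The 7 libraries were 3 chromatin immunoprecipitations (H3K4me1, H3K4me3 and H3K27Ac) in each group and 1 input, with 1 library for each mark and treatment. The labels do not say how many mice or clones the cells came from. The values compared below are the state labels of 2 segmentations made by the authors, 1 for each treatment, in which every stretch of the genome carries a chromatin state from E1 to E6.

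Before a cell divides, origin recognition proteins and loading factors place a ring-shaped helicase on DNA, kinases then switch the helicase on, and polymerases held by a sliding clamp copy the strands. Many of these genes are transcribed in a wave at the start of S phase, driven by E2F factors once the retinoblastoma protein lets go of them. Genes of mitosis are transcribed later, through CCAAT boxes and the cell cycle homology region (CHR) bound by the DREAM and MuvB complexes. In dividing blood progenitors and in leukaemia cells such promoters are usually active.

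With 1 segmentation per treatment there were no replicates, so no test of treatment was possible and no p-value is given. State labels carry no read counts, so the depth behind them is unknown. Which marks make up a state was not given in the sources used here, and the same number may stand for different marks in the 2 segmentations. States were therefore described by where they lay. At the ends of all protein-coding genes, E5 and E6 were 13.3 and 9.45 times as frequent as in the genome in DMSO, and 10.1 and 7.85 times in GSK-LSD1. E3 covered 73.3% and 70.1% of the genome, and E2 was the next widest. From DMSO to GSK-LSD1, genome coverage went from 1.98% to 1.53% for E5, from 0.217% to 2.08% for E6 and from 0.483% to 4.72% for E1. The states were called in pools of cells, so a state in a small fraction of cells and a weak mark in all of them cannot be told apart.

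For 36 of the 44 genes RefSeq gave a promoter sequence with a start and a strand on GRCm38.p6. The exceptions were Mcm4, Gins1, Gins2, Pole, Rfc2, Ccne2, Ccna2 and Aurkb. The 250 bases before each start were searched on both strands for E2F letters (TTTCCCGC, TTTCGCGC, TTTGCCGC or TTTGGCGC), the CHR (TTTGAA), the CCAAT box (CCAAT), the GC box (GGGCGG) and the TATA box (TATAAA). E2F letters were present in 10 of the 36 (27.8%), in 2.44% of the 17274 promoters of protein-coding genes and in 3.7% of the 9344 whose start was in E5 or E6 in DMSO. The 10 were Orc1, Cdc6, Mcm5, Mcm6, Mcm7, Pola1, Rfc3, E2f3, Cdk2 and Cdk1. CCAAT was present in 25 of 36 (69.4%), against 36.7% of all promoters and 36.2% of those in E5 or E6. The GC box was in 27 (75%, against 43.2% and 64.1%), TTTGAA in 6 (16.7%, against 14.5% and 9.57%) and TATAAA in 1 (2.78%, against 12.5% and 5.58%). The median number of CpG dinucleotides was 18.5 in the 36, 10 in all promoters and 17.0 in those in E5 or E6. A match of letters is a description and does not show that a factor binds there.

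Stretches of 6 promoters are printed as examples of starts that changed state or kept E5. Mcm6, Cdk1 and Ccnb1 went from E5 to E6 at the start, Rfc3 and E2f3 gained E5 or E6 there, and Bub1 kept E5. The stretches are chr1:128359706-128359955 (Mcm6), chr10:69352913-69353162 (Cdk1), chr13:29986065-29986313 (E2f3), chr5:151651209-151651458 (Rfc3), chr13:100786487-100786736 (Ccnb1) and chr2:127831860-127832109 (Bub1), on GRCm38.p6. Each is on the minus strand, upstream of the annotated gene and written 5′ to 3′ in the sense of the gene. Capitals mark E2F letters, the CHR and the CCAAT box on either strand.
Mcm6: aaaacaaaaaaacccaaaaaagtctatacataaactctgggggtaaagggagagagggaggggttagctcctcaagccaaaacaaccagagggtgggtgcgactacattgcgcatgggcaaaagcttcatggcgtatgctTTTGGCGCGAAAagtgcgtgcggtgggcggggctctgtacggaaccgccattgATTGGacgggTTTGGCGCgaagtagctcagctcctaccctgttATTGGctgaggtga
Cdk1: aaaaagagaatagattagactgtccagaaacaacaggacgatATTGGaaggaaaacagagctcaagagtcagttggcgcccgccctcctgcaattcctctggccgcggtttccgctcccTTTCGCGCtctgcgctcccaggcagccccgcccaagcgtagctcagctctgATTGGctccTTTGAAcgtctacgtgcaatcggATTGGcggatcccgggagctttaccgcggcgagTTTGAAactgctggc
E2f3: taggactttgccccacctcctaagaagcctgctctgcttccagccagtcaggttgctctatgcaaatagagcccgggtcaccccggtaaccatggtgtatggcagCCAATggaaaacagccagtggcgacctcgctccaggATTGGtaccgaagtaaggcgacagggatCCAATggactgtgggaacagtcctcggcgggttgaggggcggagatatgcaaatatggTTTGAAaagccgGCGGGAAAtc
Rfc3: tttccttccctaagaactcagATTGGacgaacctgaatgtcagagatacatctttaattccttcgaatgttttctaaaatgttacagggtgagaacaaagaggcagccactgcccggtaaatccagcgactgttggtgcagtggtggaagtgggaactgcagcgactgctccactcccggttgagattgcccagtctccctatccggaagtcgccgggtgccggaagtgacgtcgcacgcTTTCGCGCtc
Ccnb1: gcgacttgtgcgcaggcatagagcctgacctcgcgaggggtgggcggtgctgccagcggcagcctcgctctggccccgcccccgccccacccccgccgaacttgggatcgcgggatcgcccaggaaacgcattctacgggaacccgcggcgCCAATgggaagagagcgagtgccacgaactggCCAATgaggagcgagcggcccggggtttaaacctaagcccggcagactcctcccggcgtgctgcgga
Bub1: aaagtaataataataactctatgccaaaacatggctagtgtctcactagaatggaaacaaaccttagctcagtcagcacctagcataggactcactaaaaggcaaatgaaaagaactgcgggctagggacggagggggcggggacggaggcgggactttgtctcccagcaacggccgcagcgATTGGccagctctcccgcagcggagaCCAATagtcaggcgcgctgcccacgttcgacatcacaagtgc
Mcm6 held 3 E2F matches, 110 to 103, 106 to 99 and 47 to 40 bases before the start, of which the 2 farthest overlap each other. Cdk1 held 1 E2F match (131 to 124 bases before the start), 2 CHR matches and 3 CCAAT boxes. E2f3 held an E2F match 11 to 4 bases and a CHR match 23 to 18 bases before its start, and Rfc3 an E2F match 10 to 3 bases before its start. Ccnb1 and Bub1 had no E2F or CHR letters in this window and 2 CCAAT boxes each.

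At the start itself, most of these genes moved from E5 to E6. In DMSO the start lay in E5 in 32 of 36 genes, in E6 in 1 (Cdc45, part of the active helicase) and in E4 in 3 (Pold1, Rfc3 and E2f3). In GSK-LSD1 it lay in E6 in 27, in E5 in 8 and in E4 in 1 (Pold1). Gene by gene, 25 starts went from E5 to E6, and 7 stayed in E5 (Orc2, Mcm2, Pola1, Rfc1, Rfc5, Tyms and Bub1). Over the 17274 genes with a start, 49.9% were in E5 and 4.23% in E6 in DMSO, and 25.8% and 30.2% in GSK-LSD1, so the shift from E5 to E6 was general. No listed start lay in E1, E2 or E3 in either segmentation, where E2 and E3 held 10.2% and 29.5% of all starts in DMSO.

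**Figure D1:**
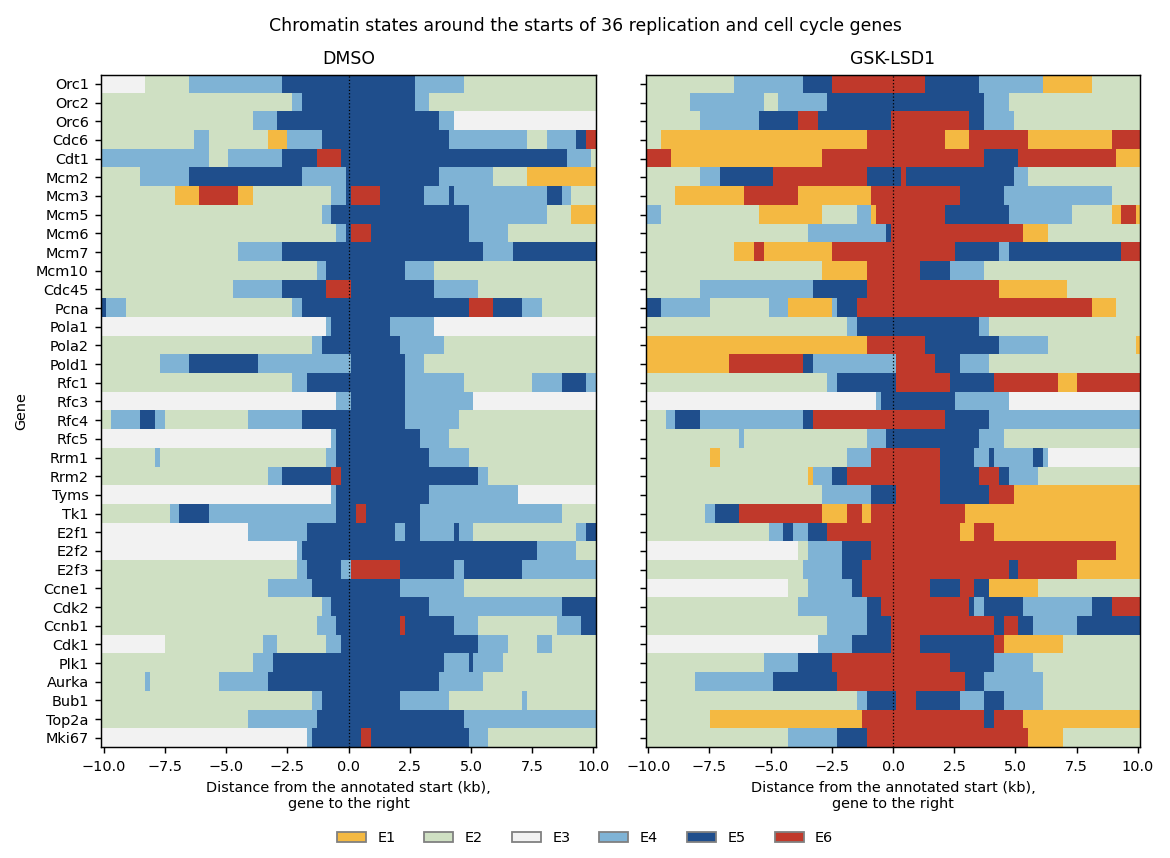
State of each 200 bp bin from 10 kb before to 10 kb after the annotated start (horizontal axis, kb, the gene to the right) of the 36 listed genes with a known strand, in DMSO and GSK-LSD1. The E5 blocks around the starts in DMSO are largely E6 in GSK-LSD1, with E1 at some borders where DMSO had E4 or E2.

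Around the genes, nearly all had more E5 and E6 in GSK-LSD1, at about the rate of other genes with these states. Area was summed over the 20 kb on either side of both gene ends. It was larger in GSK-LSD1 in 43 of 44 genes, smaller in 0 and equal in 1 (Rrm2). Of all protein-coding genes 66.1% had more, and of the 11186 with E5 or E6 at an end in DMSO 93.6% had more, a share close to that of the listed genes. The median went from 7.9 to 10.7 kb. The change had a median of 2.6 kb, where that of all genes was 1.4 kb and that of genes with E5 or E6 at an end 3.0 kb. The increase rests on E6. Counted alone, E5 was lower in 38 genes (58.7% of genes with E5 or E6 at an end) and its median change was -2.8 kb. E6 was higher in 41 (79.3%) with a median change of 5.2 kb. In DMSO 30 of the 44 genes had no E6 in the window, and in GSK-LSD1 only Pola1, Rfc3 and Rfc5 had none. The E6 already present was kept: all 103 bins in E6 in DMSO were E6 in GSK-LSD1. This share was 96.7% in the genome and 97.5% in the windows of genes with E5 or E6 at an end, close to that of the listed genes.

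**Figure D2:**
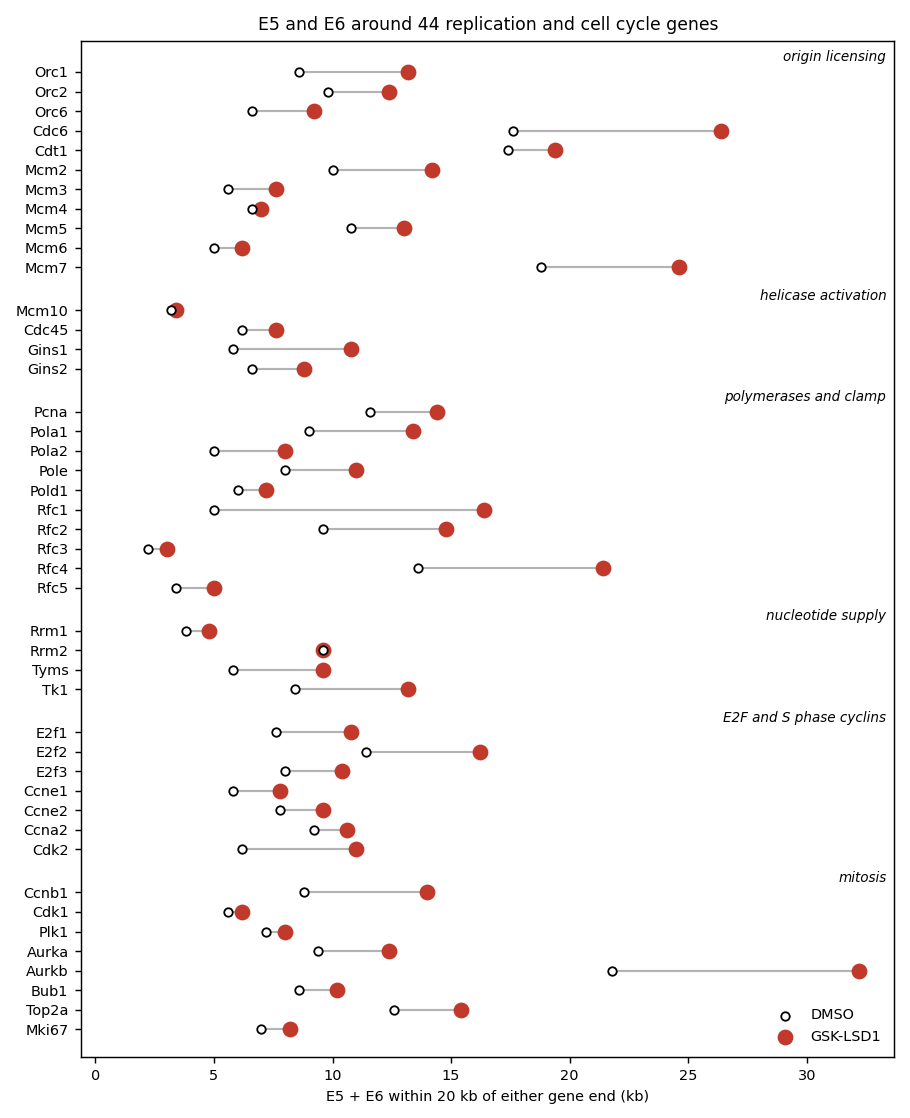
Area of E5 and E6 together within 20 kb of either gene end (horizontal axis, kb) for the 44 genes, grouped by role, in DMSO (open circles) and GSK-LSD1 (filled circles). Each line joins the values of 1 gene, and 43 of 44 lie to the right in GSK-LSD1; the largest step is that of Rfc1, from 5.0 to 16.4 kb.

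Among the 11 genes of origin licensing, which build the helicase ring on DNA before S phase, E5 and E6 together were larger in all 11, with a median of 9.8 kb in DMSO against 13.0 kb in GSK-LSD1. Cdc6 (chr11:98907709-98923942), which helps load the helicase, went from 17.6 kb in DMSO to 26.4 kb in GSK-LSD1. Its start region was 5.2 kb of E5 in DMSO and became 3.2 kb of E6, followed by 1.0 kb of E1 and 2.4 kb of E6. In its window E5 went from 16.2 to 1.2 kb and E6 from 1.4 to 25.2 kb. Mcm7 (chr5:138164583-138172111), a helicase subunit, went from 18.8 to 24.6 kb in a window that holds 8 ends of other protein-coding genes. Mcm4 (chr16:15623897-15637400), another subunit of the ring, had 6.6 and 7.0 kb, a difference of 2 bins. The 6 ring subunits thus ranged from a change of 0.4 kb in Mcm4 to 5.8 kb in Mcm7. Mcm2 (chr6:88883474-88898780) differed from the others in its states: its start stayed in E5, and the E5/E6 region over it went from 3.8 to 12.0 kb, of which 0.0 and 7.0 kb lay upstream of the start. The longer region joined 2 blocks of DMSO, which already held 8.4 kb of it, and the area in the window grew by 4.2 kb. The other licensing genes, Orc1, Orc2 and Orc6 of the origin recognition complex, Cdt1, Mcm3, Mcm5 and Mcm6, changed by 1.2 to 4.6 kb.

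The 4 genes of helicase activation went from a median of 6.0 to 8.2 kb. Mcm10 (chr2:4990724-5012791), which acts when the helicase is switched on, had 3.2 kb in DMSO against 3.4 kb in GSK-LSD1. The single bin it gained is the smallest increase among the 44, while its start still went from E5 to E6, with 2.2 of the 3.4 kb in E6. Cdc45, which joins the ring, had 6.2 and 7.6 kb. Gins1 and Gins2, subunits of the GINS complex that joins with it, went from 5.8 to 10.8 kb and from 6.6 to 8.8 kb. At the end of Gins1 the state went from E5 to E6, and at that of Gins2 it stayed E5.

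The 10 polymerase and clamp genes had the largest single increase and 3 genes with no E6 at all. Rfc1 (chr5:65261852-65338617), the large subunit of the clamp loader, went from 5.0 kb of E5 and E6 in DMSO to 16.4 kb in GSK-LSD1. In DMSO a block of 4.0 kb lay at its start and one of 1.0 kb inside the gene (chr5:65326001-65327000). In GSK-LSD1 the inner position lay within 7.4 kb of E6 (chr5:65320801-65328200), and the block at the start was 9.0 kb. Rfc4 (chr16:23113948-23127730), a small subunit of the loader, went from 13.6 to 21.4 kb. Rfc3 (chr5:151642817-151651208) had 2.2 and 3.0 kb, and Rfc5 had 3.4 and 5.0 kb, in E5 alone in both segmentations. Rfc2 had 9.6 and 14.8 kb. The 5 subunits of this 1 complex therefore spanned changes from 0.8 to 11.4 kb. Pola1 (chrX:93304766-93632387), the catalytic subunit of the polymerase that lays down primers, had 9.0 and 13.4 kb of E5 and no E6. Its accessory subunit Pola2 had 5.0 and 8.0 kb, of which 2.4 kb was E6 in GSK-LSD1. Pcna, the sliding clamp, had 11.6 and 14.4 kb, of which 1.0 and 13.0 kb was E6. Pole and Pold1, the catalytic subunits of the main replicative polymerases, had 8.0 and 11 kb, and 6.0 and 7.2 kb.

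Of the 4 genes of nucleotide supply, 3 had more E5 and E6. Rrm2 (chr12:24708254-24714146), the small subunit of ribonucleotide reductase that is made in S phase, had 9.6 kb in both segmentations. Its states still differed: 7.8 kb of E5 and 1.8 kb of E6 in DMSO became 2.8 and 6.8 kb. Rrm1, the large subunit, had 3.8 and 4.8 kb. Tyms, which makes thymidylate, had 5.8 and 9.6 kb, and Tk1, which salvages thymidine, had 8.4 and 13.2 kb. All 4 starts were in E5 in DMSO, and that of Tyms was the exception that stayed there.

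The 7 genes of E2F factors and S phase cyclins all had more, with medians of 7.8 and 10.6 kb. E2f1, E2f2 and E2f3, the activating E2F factors, had 7.6, 11.4 and 8.0 kb in DMSO, and after GSK-LSD1 10.8, 16.2 and 10.4 kb. Cyclins E (Ccne1 and Ccne2), which start S phase with Cdk2, went from 5.8 to 7.8 kb and from 7.8 to 9.6 kb. Cdk2 had 6.2 and 11 kb, and Ccna2, the cyclin A of S phase, 9.2 and 10.6 kb. All 5 of these genes with E5 at an end in DMSO had E6 at that end in GSK-LSD1.

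The 8 mitosis genes all had more, with medians of 8.7 and 11.3 kb. Aurkb (chr11:69045624-69051664), the kinase of the chromosomal passenger complex, had the most of any listed gene, 21.8 kb in DMSO against 32.2 kb in GSK-LSD1. The block at its end went from 4.8 to 15.4 kb by joining 3 blocks of DMSO, which held 11 kb of it. Cdk1 (chr10:69335146-69352912), the kinase that drives entry into mitosis, had 5.6 and 6.2 kb, and Plk1 (chr7:122159435-122169884), a kinase of spindle assembly, had 7.2 and 8.0 kb. Ccnb1 (chr13:100778739-100786486), the cyclin B partner of Cdk1, had 8.8 and 14.0 kb, and the far end of Ccnb1 went from E2 to E5. Aurka, a spindle pole kinase, had 9.4 and 12.4 kb, Bub1 of the spindle checkpoint 8.6 and 10.2 kb, Top2a, which untangles chromosomes, 12.6 and 15.4 kb, and Mki67, the proliferation antigen Ki-67, 7.0 and 8.2 kb. Cdk1 and Ccnb1, whose products form 1 kinase, both went from E5 to E6 at the start although their areas changed by 0.6 and 5.2 kb.

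At the gene ends, the step from E5 to E6 was more frequent than over all genes. Of 37 listed genes with E5 at an end in DMSO, 29 (78.4%) had E6 at the same end in GSK-LSD1. The share over the 10540 genes with E5 at an end was 50%. By role it was 8 of 10 in licensing, 2 of 3 in helicase activation, 4 of 7 in polymerases and clamp, 3 of 4 in nucleotide supply, 5 of 5 in E2F and cyclins and 7 of 8 in mitosis. The 8 that did not switch were Orc2, Mcm2, Gins2, Pola1, Pole, Rfc5, Tyms and Bub1. The share moved with the length of the E5/E6 block at a gene end in DMSO, taking the longer block where both ends had one. That length had a median of 4.8 kb in the listed genes and 3.4 kb in all genes. For blocks from 2 to under 4 kb it was 9 of 14 listed genes against 39.7% of all genes. For blocks from 4 to under 6 kb it was 8 of 11 against 71.6%, and for 6 kb and over 12 of 12 against 85.2%. Under 2 kb there was no listed gene, and the share over all genes was 11.3%. Within the listed genes the median block was 5.2 kb where the end switched and 3.8 kb where it did not. The part of block length in the higher overall share was not tested. Of the genes with a known strand and E5 at a gene end, 6 of 7 with E2F letters and 18 of 23 without them switched. It was 17 of 20 with CCAAT and 7 of 10 without it, and 3 of 4 with the CHR and 21 of 26 without it. The same shares over all genes were not computed, and no link between letters and switching is drawn from these small counts.

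**Figure D3:**
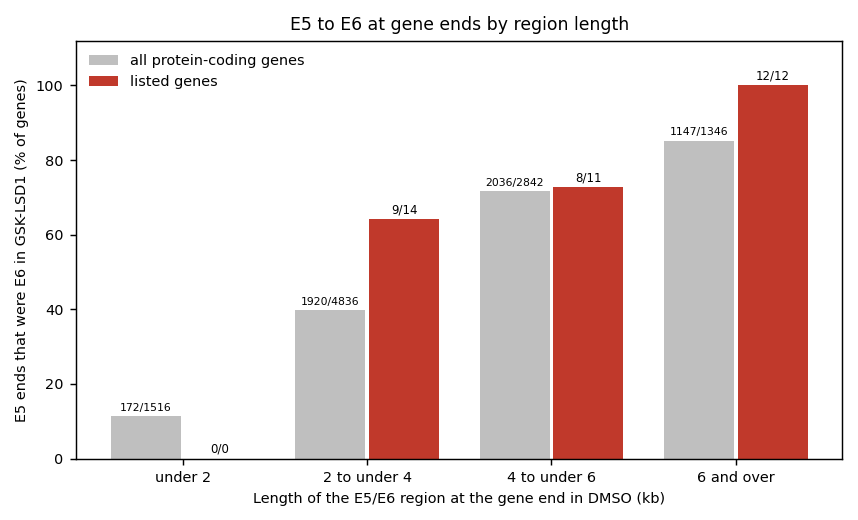
Share of genes with E5 at an end in DMSO that had E6 at that end in GSK-LSD1 (vertical axis, %, from 0), by the length of the E5/E6 block at a gene end in DMSO (horizontal axis, kb), for all protein-coding genes (grey, which include the listed ones) and the listed genes (red). Where both ends had a block, the longer was taken. Numbers over the bars are genes switched and genes in the class; the share rises with block length in both, from 39.7% to 85.2% of all genes over the classes that hold listed genes.

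Most of these genes already had E5 or E6 at an end in DMSO, so few could gain either state there. In DMSO 38 of 44 had either state at an end and in GSK-LSD1 40 had. The 2 gains were Rfc3, whose start end went from E4 to E5, and E2f3 (chr13:29906575-29986064), whose start end went from E4 to E6. In both, an E5/E6 block in DMSO already reached the bin next to that end. It ended at 151651200 in Rfc3, whose end is 151651208, and at 29986000 in E2f3, whose end is 29986064. Over all 10445 genes with neither state in DMSO, 8.52% gained one, and of the 11186 with either state 1.9% lost both, where the listed genes lost 0. The 8.52% compares only with the listed genes that had neither state in DMSO. Of these, Rfc3 and E2f3 gained one, and Orc1, Pold1, Rfc1 and Ccna2 did not. The block of E2f3 went from 4.2 to 9.6 kb by joining 3 blocks of DMSO, which held 8.0 kb of it, and that of Rfc3 from 2.2 to 3.0 kb. Orc1, Pold1, Rfc1 and Ccna2 had neither state at an end in either segmentation. For Orc1 (chr4:108575705-108616030), the start in the promoter table lies inside the annotated gene and went from E5 to E6, and for Rfc1 likewise it lay in E5 in both. The bins at the right end (the higher coordinate) of Pold1 (chr7:44532744-44548815) and Ccna2 (chr3:36564865-36573038) were E4, with an E5/E6 block in the adjoining bin in both segmentations. These blocks were 2.2 and 2.6 kb in Pold1, and 5.0 and 6.0 kb in Ccna2. Each of the 44 genes thus had E5 or E6 at an end, in the bin next to an end or at its start in both segmentations.

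The blocks lay mostly inside the gene and in most genes grew on both sides. In the 33 genes with E5 or E6 at the start in both segmentations, the block reached a median of 1.2 kb upstream in DMSO against 1.6 kb in GSK-LSD1, and 3.4 against 4.2 kb downstream. The upstream reach was longer in 25 (75.8%), shorter in 3 and equal in 5, and the downstream reach longer in 22 (66.7%), shorter in 5 (Cdc6, Mcm5, Mcm7, Rrm2 and Cdk1) and equal in 6. Over the 9194 such genes it was longer upstream in 76% and downstream in 79.1%, and the medians were 1.0 and 1.6 kb upstream and 2.2 and 3.0 kb downstream. The block was longer downstream than upstream in 32 of 33 listed genes in DMSO (77.2% of all such genes) and in 28 in GSK-LSD1 (73.9%). The 5 with the longer side upstream in GSK-LSD1 were Orc1, Orc6, Mcm2, E2f1 and Aurka. E6 was centred just past the start. At 1 kb downstream of the start, 30 of 36 genes were in E6 in GSK-LSD1 and 2 in DMSO, against 26.6% and 3.38% of all genes with a start. At 3 kb downstream in GSK-LSD1, 12 were in E6 and 17 in E5, against 13% and 20.2%.

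**Figure D4:**
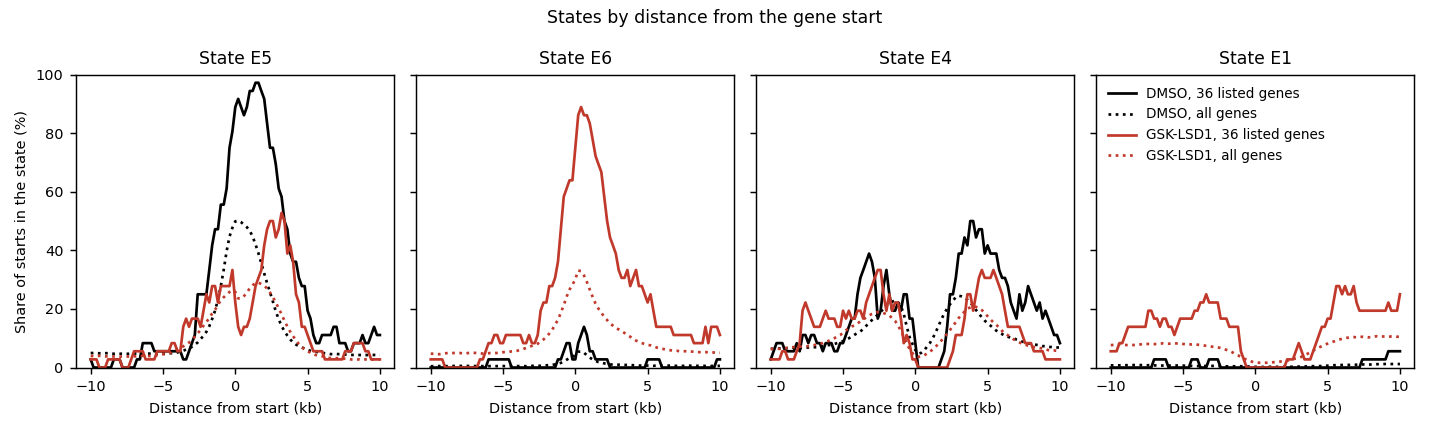
Share of starts (vertical axis, %) in states E5, E6, E4 and E1 by distance from the start (horizontal axis, kb, positive into the gene), for the 36 listed genes (solid) and all 17274 genes with a known start (dotted), in DMSO (black) and GSK-LSD1 (red). At the start itself 32 of the 36 listed genes were in E5 in DMSO and 27 in E6 in GSK-LSD1, and E1 was absent from all 36 starts in both.

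The borders of the blocks changed from E4 to E1 in part of the genes. In DMSO the state next to the block was E4 on both sides in all 33 genes, and in 97.1% (upstream) and 98.2% (downstream) of all such genes. In GSK-LSD1 it was E1 on the upstream side in 9 (27.3%, against 21.4% of all such genes) and on the downstream side in 14 (42.4%, against 21.9%). The 9 upstream were Cdc6, Cdt1, Mcm3, Mcm5, Mcm7, Mcm10, Pola2, Tk1 and Top2a. The 14 downstream were Cdc6, Cdt1, Mcm6, Cdc45, Pcna, Rfc1, Tyms, Tk1, E2f1, E2f2, Ccne1, Cdk1, Top2a and Mki67. Cdc6, Cdt1, Tk1 and Top2a had E1 on both sides. In the windows of all 44 genes, 27.1% of the bins in E4 in DMSO were E1 in GSK-LSD1, 22.7% were E5 and 17.7% were E6. In the windows of all genes with E5 or E6 at an end, these shares were 17.9%, 23.9% and 17.9%.

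E1 within 20 kb was larger in 29 of the 44 genes, smaller in 1 and equal in 14, all of them at 0. Of all protein-coding genes 47.5% had more E1, and of those with E5 or E6 at an end in DMSO 67.0% had more, near the share of the listed genes. The median change was 5.1 kb, against 0.0 and 3.0 kb. In DMSO 35 of the 44 genes had no E1 and none had more than 4.0 kb. Tk1 (chr11:117815519-117826087) went from 0.0 to 23.2 kb, the largest change. Top2a (chr11:98992947-99024199) and Cdt1 (chr8:122568015-122573130), the loading factor degraded after origins fire, both went from 0.0 to 21.8 kb. Rfc2 (chr5:134582690-134598328) went from 4.0 to 24.4 kb. Mcm2 was the exception, going from 3.4 kb in DMSO to 0.0 kb in GSK-LSD1. The genes without any E1 in the window in either segmentation came from several roles and were Orc2, Orc6, Mcm4, Gins1, Pola1, Pole, Rfc3, Rfc4, Rfc5, Ccna2, Cdk2, Ccnb1, Plk1 and Aurka. Of 29 genes with E2 at an end in DMSO, 9 had E1 at that end in GSK-LSD1 (Mcm6, Rfc1, Rfc2, Tyms, Tk1, Ccne2, Aurkb, Top2a and Mki67), against 14.3% of all genes with E2 at an end. Across the 44 genes, the change in E1 and the change in E5 and E6 had a Spearman correlation of 0.08, as a description over genes.

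**Figure D5:**
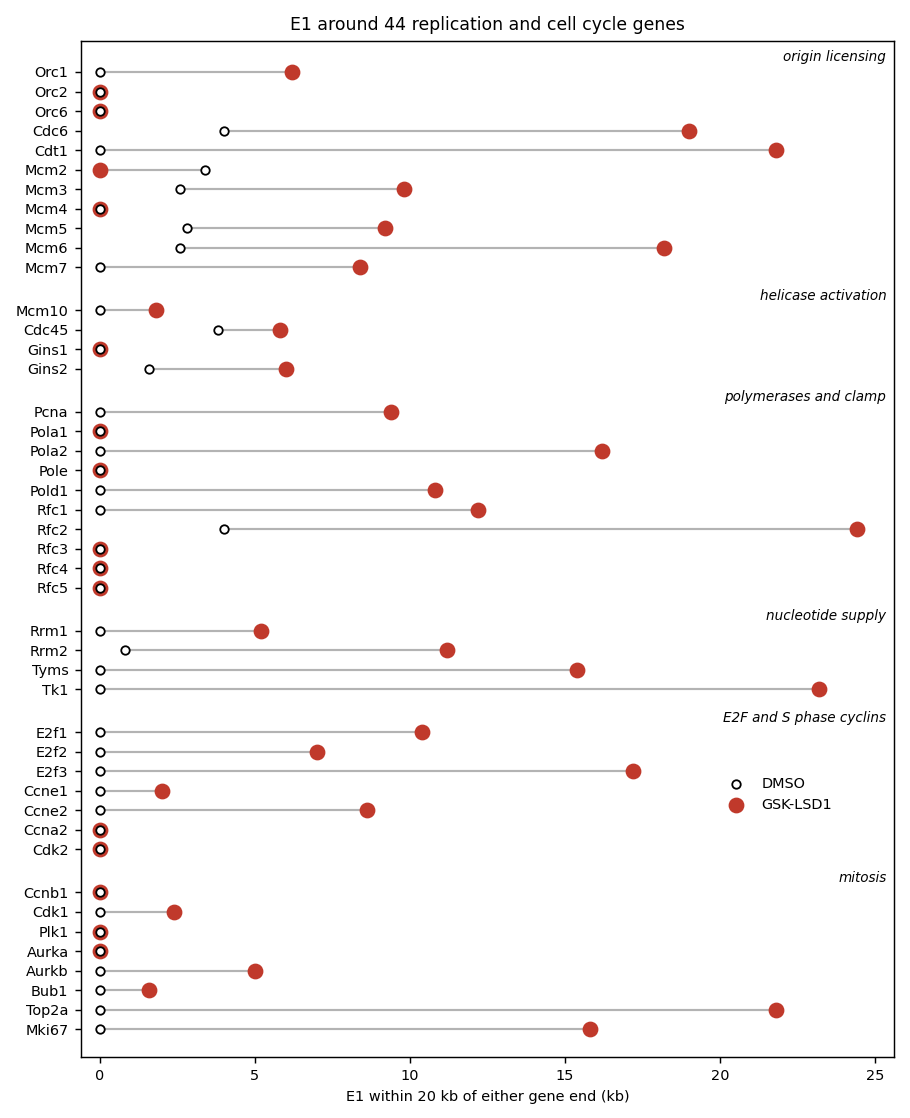
Area of E1 within 20 kb of either gene end (horizontal axis, kb) for the 44 genes, grouped by role, in DMSO (open circles) and GSK-LSD1 (filled circles). In 29 genes the GSK-LSD1 value lies to the right, up to 24.4 kb in Rfc2, and in Mcm2 it lies to the left.

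Inside the genes, more than 2.5 kb from either end, E1 also appeared. Of the 40 genes with at least 2 kb of such interior, 5 had any E1 in DMSO and 21 in GSK-LSD1, and it was larger in 21, smaller in 2 (Mcm2 and Mcm3) and equal in 17. Of the 9079 such genes with E5 or E6 at an end in DMSO 49.6% had more, a share close to that of the listed genes. The interior of Rfc1 went from 4.6 kb of E1 in DMSO to 26.8 kb in GSK-LSD1, while its E2 went from 55.2 to 30.6 kb. That of E2f3 went from 0.0 to 21.8 kb of E1 and from 56.2 to 44.8 kb of E2. Pola1, the longest of the genes, had another pattern. In DMSO its interior held no E2 and lay almost wholly within 1 E3 segment of 328.8 kb, and in GSK-LSD1 it held 97.4 kb of E2 and 2.2 kb of E1. In the windows of the 44 genes, 62.7% of E3 bins were E2 in GSK-LSD1, against 8.3% in the genome and 31.8% in the windows of all genes with E5 or E6 at an end. Of the 20 genes with E3 in the window in DMSO, 14 had some that became E2 (67.7% of the 5661 genes with E3 in the window and E5 or E6 at an end in DMSO), and 13 had 10 kb or more (41.2%), led by Pola1 (41.2 of 60.8 kb), Orc2 (39.6 of 39.6 kb) and Tyms (36 of 45.6 kb).

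The windows also take in neighbouring genes, though the windows of the 44 genes did not overlap each other. Another gene's end lay within 1 kb of an end in 16 of 44. The 5 genes with no other protein-coding end in the window (Rfc3, Rrm2, E2f3, Ccne1 and Cdk1) had a median change in E5 and E6 of 0.8 kb, from 0.0 to 2.4 kb. With 1 or 2 other ends the median was 2.6 kb (15 genes), with 3 or 4 it was 2.8 kb (18 genes) and with 5 or more 3.1 kb (6 genes). Over the 44 genes the number of other ends and the change had a Spearman correlation of 0.33, the DMSO area and the change one of 0.47, and gene length and the change one of 0.03, all as descriptions. The share of the change that belongs to neighbours was not tested. Measured as the block at a gene end alone, the median went from 4.1 to 6.0 kb with a median change of 1.4 kb. A longer block was seen in 36 of 44 genes, against 49.4% of all genes. These sets are unlike, as 38 of 44 listed genes but only 11186 of 21631 genes had a block at an end in DMSO. Among genes with one, the median block went from 4.8 to 6.3 kb in the listed genes and from 3.6 to 5.2 kb in all. Such a block can also join blocks that were apart in DMSO. Of the 40 genes with a block at an end in GSK-LSD1, it covered 2 or more blocks of DMSO in 7 (Mcm2, Mcm3, Mcm7, Gins2, E2f1, E2f3 and Aurkb). Whether a joined block belonged to a neighbour was not tested, and E2f3 had no other protein-coding end in its window. The share over all genes was not computed, so whether such joins are usual is unknown.

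Other genes of the same pathways also had more E5 and E6 in most cases. Of 34 further replication genes, 32 had more E5 and E6 within 20 kb, 0 less and 2 the same. Pole2, a subunit of polymerase epsilon, went from 17.8 to 25.4 kb and Chaf1a, which deposits histones behind the fork, from 20.2 to 27.6 kb, while Gins3 (3.6 kb) and Pold2 (4.4 kb) had equal areas. Of 29 further mitosis genes, 28 had more and 1 less. Incenp, of the passenger complex, went from 6.4 to 16.4 kb and Kif23, a motor of cytokinesis, from 10.2 to 18.8 kb, while Cdca8 had 5.0 and 5.6 kb and Cenpf, a kinetochore protein, 3.8 and 3.6 kb. Of 16 genes of the E2F, RB and DREAM regulators, 15 had more and 1 less. Lin54, the MuvB subunit that binds the CHR, went from 18.8 to 30.2 kb and Rbl2, the pocket protein of DREAM, from 12.2 to 19.2 kb. The repressor E2f7 had 3.6 and 4.0 kb and the repressor E2f6 2.4 and 1.8 kb. E5 at an end became E6 in 49 of 70 genes of these 3 lists (70.0%), and in 8 of 15 of the regulators.

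Values of 2 other sets stand beside these. Cytosolic ribosomal protein genes, which are active in all growing cells, had more E5 and E6 in 76 of 79, with a median change of 3.4 kb, and 55 of 73 (75.3%) went from E5 to E6 at an end. Among them Rpl23a went from 17.8 to 26.8 kb and Rps18 from 17.2 to 25.6 kb, and Rps23 stayed at 2.8 kb. The 12 genes of G1 cyclins, their kinases and CDK inhibitors, which decide whether S phase begins, all had more, with a median change of 3.5 kb. Ccnd3, a D cyclin, went from 26.8 to 43.0 kb and Cdk6 from 29.0 to 41.8 kb, while the inhibitors Cdkn1c and Cdkn2b had 0.8 and 2.4 kb, and 4.0 and 6.2 kb. In that list 3 of the 7 genes with E5 at an end in DMSO had E6 at that end in GSK-LSD1. As a check of the cell label, E5 or E6 lay at an end of 7 of 13 blood cell marker genes in DMSO and 11 in GSK-LSD1, of 1 of 8 lymphocyte markers in both, and of 2 of 10 markers of other tissues in DMSO and 0 in GSK-LSD1. The blood markers without either state at an end in DMSO were Elane, Mpo, Ctsg, Cebpe, Csf3r and Itgam, of which Elane and Csf3r were also without it in GSK-LSD1, and the lymphocyte marker with it was Cd79a.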

How the data were processed

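Mouse CEBPA/CSF3R leukaemia cells treated with DMSO or GSK-LSD1 were profiled by chromatin immunoprecipitation and sequencing. The deposited values are state labels (E1 to E6), 1 segmentation per treatment and shared by the samples of its marks, per the labels. The submitters' processing notes list Bowtie and the mouse build mm10 (GRCm38). The segmentation tool was not given in the sources used here, nor were the marks of each state or any use of the input. Reads and signal were not analysed here. A state is a call made from signal, so library depth and enrichment can move its borders.

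Segments were expanded to 200 bp bins in Python 3.11.15 (numpy 2.4.6, pandas 2.3.3, scipy 1.17.1, matplotlib 3.10.9). Genes came from RefSeq tables of GRCm38.p6, a table without strand, so both gene ends were used, and promoters gave starts for 36 of the 44 genes. Area was summed over bins within 20 kb of either end, and any difference of 1 bin counted. Blocks are runs of adjoining E5 and E6 bins. Where both gene ends lay in a block, the longer one gave the length of the block at a gene end. The area calculation was tested on simulated data. Alternatives changed the window, the states counted, the ends used, single-bin segments and the tolerance. All 44 genes may be named; full values went to the 5 largest and 5 smallest area changes, genes whose class at an end changed, genes with neither state at an end and the 4 largest E1 changes, and elsewhere to the 2 largest and 2 smallest of each list. Any further gene was named with its values in view. Apart from the genes named in the text, 1 gene that the rule takes is not reported here. The genes and lists were chosen with earlier results of these data known. Bins and genes are not replicates, and no test was made.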

Additional observations from a re-analysis of the deposited data

How the results depend on the processing

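Of 31 recalculations, 24 kept the direction of the 5 results within 1.5 times the value, 6 moved by more and 1 reversed. The reversal came with E5 alone, for which the median change over the 44 genes was -2.8 kb in place of 2.6 kb. By E5 alone 6 genes (13.6%) had more, against 28.6% of all genes, and 38 had less. That count stands among the 6 that moved, although most genes changed direction in it. With E6 alone the median was 5.2 kb, with the block at a gene end 1.4 kb, with a 5 kb window 1.4 kb, with a 50 kb window 4.8 kb, and in the 5 genes without another gene end in the window 0.8 kb. With E4 added to E5 and E6, 29 of 44 genes (65.9%) had more, against 55% of all genes, with a median of 1.9 kb. Counting differences over 400 bp alone, 41 of 44 had more (93.2%, against 61.7% of all genes). The 400 bp limit has no meaning for a median and was not run there. The share that went from E5 to E6 at an end was between 77.1% and 85.7%. Over all genes it was 49.9% and 60.7% at the same settings. Each recalculation gave 2 gains at an end: Rfc3 and E2f3, or, for any bin within 1 kb of an end, Orc1 and Rfc1. No paired analysis was possible because there is 1 segmentation per treatment. For the same reason the spread between repeats is unknown, and depth cannot be judged without counts.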
